A study of Mus musculus with 8 samples.

Results

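Mouse embryonic stem cells (ESC) were set against induced pluripotent stem cells (iPSC) in gene expression and in the positions of N6-methyladenosine (m6A) on their transcripts. The comparison used 4 of the 8 libraries of the series, namely 1 RNA-seq and 1 m6A-seq library of each cell type, chosen by their labels. ESC were at passage 14 and iPSC at passage 22, and both were of the C57BL/6 strain. The labels give the iPSC medium, which held 20% serum replacement and 1000 units/ml of leukemia inhibitory factor, and name no reprogramming factors, no cell of origin and no clone. For m6A-seq, purified mRNA was broken into fragments of about 100 nt and enriched with an antibody against m6A. Expression was deposited as FPKM (fragments per kilobase of transcript, scaled to the mapped fragments of the library) and m6A as yes/no calls for 5 transcript regions. Of 15359 genes, 11598 reached 1 FPKM in ESC or iPSC and were compared in expression. Of 19776 transcripts, 10934 (9641 genes) reached 1 FPKM in both and were compared in calls. Every side was 1 library, so no difference has a replicate check, no test could be made, and differences between cell types, passages and single libraries cannot be told apart.

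Pluripotent cells can form all cell types of the embryo. ESC are taken from the early embryo, whereas iPSC are made from other cells by forced expression of transcription factors. Both rest on the transcription factors Pou5f1 (Oct4), Sox2 and Nanog, and leukemia inhibitory factor, Wnt and BMP signals favour the naive state while FGF and ERK signalling promotes exit from it. The m6A mark is laid on adenosines of mRNA by a complex around Mettl3 and Mettl14, mostly within a short consensus around GAC and often near the stop codon. It is removed by Fto and Alkbh5 and bound by YTH domain proteins, and m6A on transcripts of pluripotency factors affects their turnover.

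The calls cover 5 regions. In table order these are TcSS, the 5' UTR, the coding sequence (CDS), TsTS and the 3' UTR. TcSS and TsTS are kept as written because no label or header explains them, and TsTS is the column between the CDS and the 3' UTR. Setting TsTS beside stop codons, here and in the motif search below, is an assumption from that order. To show where the mark could lie near a stop codon, the 5-base sequence GGACT, a common form of the m6A consensus, was searched on the transcript strand within 100 nt to each side of the stop codon of the 31 core and naive pluripotency genes. It was present in 7 of them, which are printed below with 8 bases to each side from the mouse genome build GRCm38 (GENCODE M21). GGACT is in capitals, and all other bases are in lower case. The windows are chr6:122606288-122606308 (minus strand, 3' UTR) for Gdf3, chr3:34651373-34651393 (plus strand, 3' UTR) for Sox2, chr9:110940771-110940791 (minus strand, coding) for Tdgf1 and chr14:63492791-63492811 (minus strand, coding) for Tdh. They are chr1:118677418-118677438 (plus strand, coding) for Tfcp2l1, chr7:139944967-139944987 (plus strand, coding) for Utf1 and chr17:37010507-37010527 (plus strand, coding) for Zfp57. The stop codon is counted as coding here, and in Zfp57 the last base of GGACT is the first base of the stop codon.
Gdf3: tagtctcgGGACTaggctagg
Sox2: tgagggctGGACTgcgaactg
Tdgf1: agcatccgGGACTccgtgtca
Tdh: gctcggaaGGACTggggctgg
Tfcp2l1: tgaagtgtGGACTctgagcag
Utf1: atccttggGGACTtgcgccaa
Zfp57: gaagattcGGACTgatttctg
Among these 7, the TsTS column was called in both cell types for Sox2 and Tdh, in iPSC only for Gdf3, Tfcp2l1 and Utf1, and in neither for Tdgf1 and Zfp57. A match of the letters is a description and does not show that the site is methylated.

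ESC and iPSC both had high levels of the pluripotency markers. Pou5f1 was at 1051 FPKM in ESC and 556 FPKM in iPSC, Nanog at 254 FPKM in ESC and 232 FPKM in iPSC, and Sox2 at 84.6 FPKM in ESC and 119 FPKM in iPSC. Tdgf1, a co-receptor of Nodal, was at 381 FPKM in ESC and 439 FPKM in iPSC. Over all genes, values on the log2(FPKM + 1) scale had a Pearson correlation of 0.893 and a Spearman correlation of 0.851 across the 11598 genes, which are not independent replicates. On that scale ESC exceeded iPSC by 2-fold or more for 1436 genes (12.4%), iPSC exceeded ESC for 1493 (12.9%), and 8669 (74.7%) lay within 2-fold. A gene is called higher in a cell type below where it passed 2-fold. At 4-fold the counts were 154 genes higher in ESC and 183 higher in iPSC. The median difference, ESC minus iPSC, was 0.03 (log2).

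The difference between the libraries ran with transcript length and GC content. In 10 equal bins by length, the bin of the shortest transcripts had a median log2 difference of 0.73 and the bin of the longest a median of −0.64. In 10 bins by GC content, the lowest bin had a median of −0.78 and the highest a median of 0.68. Across 11508 genes the Spearman correlation of the difference was −0.449 with length and 0.498 with GC content. Summed FPKM was 575834 in ESC and 391231 in iPSC. For this reason each difference was also taken relative to the median of genes of like length and GC content, an adjustment chosen after seeing the data and called adjusted below. After it, 841 genes (7.31%) were past 2-fold on the ESC side and 863 (7.5%) on the iPSC side, of which 573 on the ESC side and 631 on the iPSC side were also past 2-fold in the same direction before it. The part of length and GC content in any single gene's difference was not tested.

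**Figure D1:**
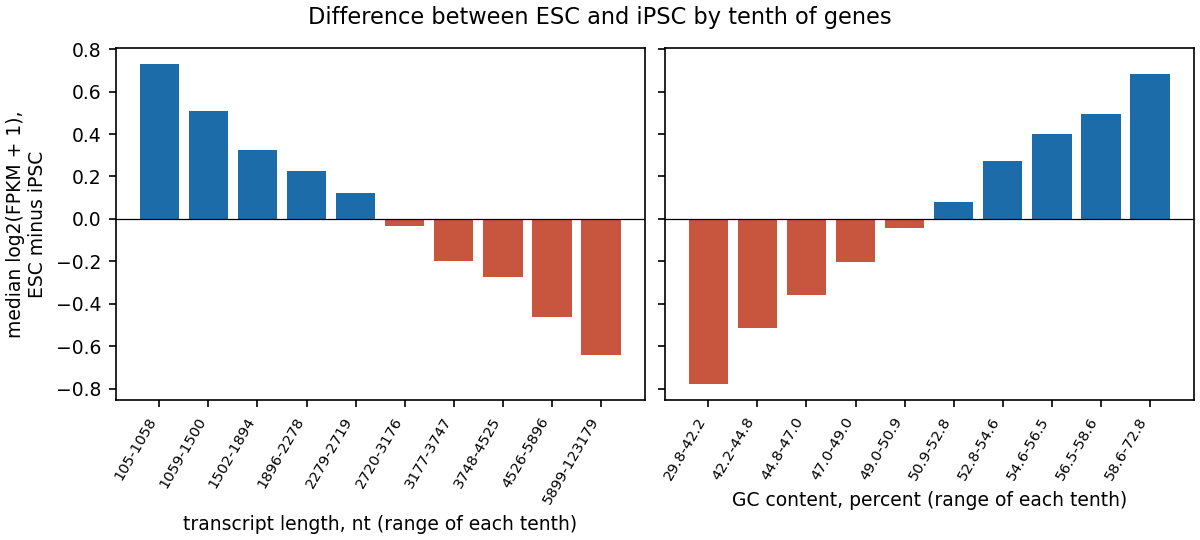
Median log2(FPKM + 1) difference, ESC minus iPSC, for 10 bins of 11508 genes ordered by transcript length (left, in nt) and by GC content (right, in percent); blue bars are above 0 and red bars below. The medians run down from 0.73 in the shortest bin to −0.64 in the longest, and up from −0.78 to 0.68 with GC content.

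The genes with the greatest excess in ESC included posterior and Wnt-linked transcription factors and several genes of differentiated tissues. Cdx1, a homeobox factor of the posterior embryo and a Wnt target, was at 82.7 FPKM in ESC and 2.71 FPKM in iPSC (log2 difference 4.50). Sp5, a zinc finger factor that is also a Wnt target, was at 11.5 FPKM in ESC and 0.603 FPKM in iPSC. Ppp1r14d, an inhibitor of protein phosphatase 1, stood first with 46.4 FPKM in ESC and 0.392 FPKM in iPSC (difference 5.09). Bglap3, of the osteocalcin family, was at 79.5 FPKM in ESC and 2.29 FPKM in iPSC, and Tnni3, the cardiac troponin I, at 23.7 FPKM in ESC and 0.914 FPKM in iPSC. Dio3, an imprinted gene for a thyroid hormone deiodinase, was at 37.6 FPKM in ESC and 3.84 FPKM in iPSC. Rpl34, a ribosomal protein gene whose reads may be shared with near-identical copies, was at 921 FPKM in ESC and 48.4 FPKM in iPSC and is uncertain. The others among the 15 widest differences toward ESC were Pglyrp1, Epp13, Ubd, Cited4, A4galt and Crxos, at 17 to 42.6 FPKM in ESC and 0.664 to 2.98 FPKM in iPSC, and the microRNA precursor entries Mir3062 (105 nt) and Mir719 (110 nt), which were listed at 0 in iPSC. FPKM of entries this short is uncertain.

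The genes with the greatest excess in iPSC included feedback inhibitors of ERK signalling, contractile genes of smooth muscle and the imprinted gene Peg10. Spry4, an inhibitor of receptor tyrosine kinase signalling, was at 0.187 FPKM in ESC and 21.6 FPKM in iPSC (difference −4.25). Dusp6, a phosphatase that switches ERK off and is induced by it, was at 1.59 FPKM in ESC and 27.2 FPKM in iPSC. Peg10, a paternally expressed gene derived from a retrotransposon and needed in the placenta, was at 1.83 FPKM in ESC and 25.6 FPKM in iPSC (difference −3.23). Acta2, the smooth muscle actin, was at 0.247 FPKM in ESC and 18.8 FPKM in iPSC, and Tagln (transgelin) at 1.12 FPKM in ESC and 27.7 FPKM in iPSC. Car4, a carbonic anhydrase, was at 0.171 FPKM in ESC and 28.8 FPKM in iPSC. Lyz2, the lysozyme of macrophages, was listed at 0 in ESC and at 12.3 FPKM in iPSC. Cmah, Hook1, Mob1a and Slc39a14 were at 0.157 to 0.999 FPKM in ESC and 10.1 to 21.4 FPKM in iPSC. The remaining 4 of the 15 widest differences toward iPSC were the small nucleolar RNAs Snora15, Snora33 and Snora2b and the microRNA entry Mir1192, all listed at 0 in ESC. Small nucleolar RNA entries as a class counted 2 higher in ESC and 16 higher in iPSC of 29, against 12.4% and 12.9% of all genes. Of the 29, 3 were listed at 0 in ESC and 0 in iPSC. The median length of these entries was 136 nt. No RNA-seq fragment size is given here, and FPKM of entries this short is uncertain.

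**Figure D2:**
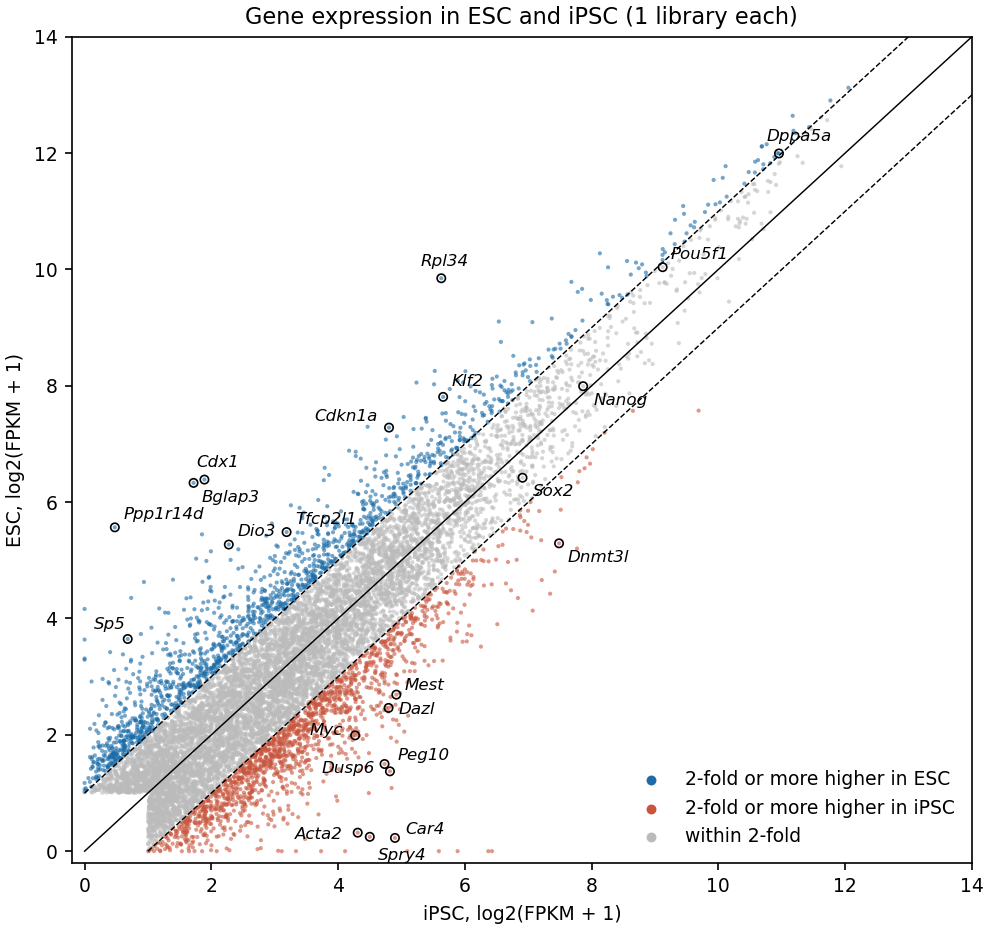
Expression of 11598 genes in ESC (vertical axis) against iPSC (horizontal axis), log2(FPKM + 1), 1 library each; each point is a gene, the solid line marks equal values and the dashed lines 2-fold. Blue genes (1436) lie past 2-fold on the ESC side and red genes (1493) on the iPSC side; Pou5f1, Nanog and Sox2 lie between the dashed lines, Cdx1 far above them and Spry4 and Acta2 far below.

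All 31 core and naive pluripotency genes reached 1 FPKM. Of these, 9 were higher in ESC (12.4% of all genes were), 5 were higher in iPSC (12.9% of all genes) and 17 lay within 2-fold, with a median difference of 0.13. The counts of every list below are to be read against the same shares of all genes, and adjusted counts against 7.31% for ESC and 7.5% for iPSC. After adjustment 7 were past 2-fold on the ESC side and 5 on the iPSC side. Among the 9 on the ESC side, Tfcp2l1, a factor downstream of LIF, was at 43.8 FPKM in ESC and 8.11 FPKM in iPSC, and Klf2 at 223 FPKM in ESC and 49.5 FPKM in iPSC. Tbx3 was at 41.3 FPKM in ESC and 11.1 FPKM in iPSC, Prdm14, a repressor of FGF signalling and of DNA methyltransferases, at 11.2 FPKM in ESC and 3.53 FPKM in iPSC, and Klf4 at 136 FPKM in ESC and 62.1 FPKM in iPSC. Tdh, a threonine dehydrogenase used by mouse pluripotent cells, was at 271 FPKM in ESC and 58.2 FPKM in iPSC. Sall4, Zfp57, which guards imprints, and Dppa5a completed the 9, with Dppa5a at 4078 FPKM in ESC and 1986 FPKM in iPSC (adjusted difference 0.36).

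The 5 pluripotency genes higher in iPSC were Dnmt3l, Rif1, Nr5a2, Lin28a and Utf1. Dnmt3l, the catalytically inactive partner of the de novo DNA methyltransferases, was at 38.2 FPKM in ESC and 178 FPKM in iPSC (difference −2.19, adjusted −2.57). Rif1, which acts at telomeres and in replication timing, was at 8.16 FPKM in ESC and 42.0 FPKM in iPSC. Lin28a, which blocks maturation of let-7 microRNAs, was at 20.5 FPKM in ESC and 56.8 FPKM in iPSC, and Utf1, a chromatin protein of undifferentiated cells, at 108 FPKM in ESC and 241 FPKM in iPSC. The receptor Nr5a2 was at 2.44 FPKM in ESC and 9.65 FPKM in iPSC. The 17 within 2-fold held Pou5f1, Sox2, Nanog, Esrrb, Zfp42, Fgf4, Klf5, Nr0b1, Gbx2, L1td1, Tcl1, Tdgf1, Fbxo15, Gdf3 and Dppa2, Dppa3 and Dppa4. Among these, Pou5f1 had the widest difference (0.92).

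Transcripts of 1 gene did not always follow the gene. The leading Pou5f1 transcript was at 602 FPKM in ESC and 554 FPKM in iPSC, and the other at 449 FPKM in ESC and 2.15 FPKM in iPSC. The excess of Pou5f1 in ESC thus lay in the second transcript. Of the Sall4 transcripts, the leading one was at 55.9 FPKM in ESC and 0.0925 FPKM in iPSC, and another at 7.61 FPKM in ESC and 22.7 FPKM in iPSC. Of the Zfp57 transcripts, the leading one was at 135 FPKM in ESC and 0.923 FPKM in iPSC, and another at 52.8 FPKM in ESC and 40.8 FPKM in iPSC. How fragments were shared out among overlapping transcripts decides such values, and gene sums are used for genes throughout.

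Genes of the formative and primed states, which follow the naive state, were higher in iPSC more often than in ESC. Of 24 listed genes, 20 reached 1 FPKM, 1 (Fgf8) was higher in ESC and 7 were higher in iPSC, with a median of −0.41 (adjusted −0.72, with 0 higher in ESC and 8 in iPSC). The Nodal antagonist Lefty1 was at 4.64 FPKM in ESC and 23.4 FPKM in iPSC. The de novo methyltransferases Dnmt3a and Dnmt3b were at 7.24 and 14 FPKM in ESC and at 29.2 and 38.5 FPKM in iPSC. Otx2, a defining factor of the primed state, was low, at 0.208 FPKM in ESC and 2.03 FPKM in iPSC, and Fgf5 was under 1 FPKM in both.

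Genes of the primitive streak, mesoderm and posterior embryo were mostly silent. Of 27 listed, 21 were in the table and 9 reached 1 FPKM, with 4 higher in ESC, 1 higher in iPSC and a median of 0.53. After adjustment the counts were 3 for ESC and 1 for iPSC, with a median of 0.22. This list is too short to read against the shares of all genes. Besides Cdx1 and Sp5 the ESC side held Gsc, the organiser factor goosecoid, at 7.24 FPKM in ESC and 0.701 FPKM in iPSC, and Fgf8 at 1.61 FPKM in ESC and 0.253 FPKM in iPSC, whose difference was −0.01 after adjustment. Bmp4 was at 0.329 FPKM in ESC and 3.62 FPKM in iPSC. Brachyury (T), Mixl1, Tbx6 and Cdx2 stayed under 1 FPKM in both.

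Markers of other cell types were checked in the same way. Among endoderm and primitive endoderm genes 12 reached 1 FPKM, 2 were higher in ESC and 4 in iPSC (median −0.08), and Gata6 and Sox17 were under 1 FPKM in both. Trophoblast genes counted 2 higher in ESC and 2 higher in iPSC of 11 (median −0.17; adjusted 1 and 3 of 10), and neural genes 0 higher in ESC and 2 higher in iPSC of 5 (median 0.08; adjusted 1 and 2). Both lists are too short to read against the 12.4% of all genes higher in ESC and 12.9% higher in iPSC. Fibroblast and smooth muscle genes were mostly higher in iPSC. Of 20 at 1 FPKM or more, 1 (Pdgfrb) was higher in ESC and 13 were higher in iPSC, with a median of −1.21 (adjusted −1.37, with the same counts). Their summed level was 213 FPKM in ESC and 439 FPKM in iPSC. Myl9, a myosin light chain, was at 3.43 FPKM in ESC and 24.9 FPKM in iPSC, and the intermediate filament Vim at 31.1 FPKM in ESC and 75.5 FPKM in iPSC. The fibroblast collagens were low, with Col1a1 at 0.709 FPKM in ESC and 4.82 FPKM in iPSC, and Col1a2 at 0.0336 FPKM in ESC and 3.73 FPKM in iPSC. Col3a1 and Prrx1 were listed at 0 in ESC and stayed under 1 FPKM in iPSC. Of the blood and feeder-type markers, 6 reached 1 FPKM, 2 (Laptm5 and Cd74) higher in ESC and 2 (Lyz2 and Tyrobp) higher in iPSC (median 0.16). More cells of another type and more RNA per cell cannot be told apart in such bulk libraries, and the part of these cells in other differences was not tested.

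Germ cell genes had more members on the iPSC side than on the ESC side. Of 25 at 1 FPKM or more, 1 (Dpep3) was higher in ESC and 12 were higher in iPSC, with a median of −0.91 (adjusted 1 and 11, median −0.84). Dazl, an RNA-binding protein of germ cells, was at 4.51 FPKM in ESC and 26.8 FPKM in iPSC, and the helicase Ddx4 (Vasa) at 1.60 FPKM in ESC and 9.55 FPKM in iPSC. Members of the piRNA pathway were also higher in iPSC, with Piwil2 at 1.14 FPKM in ESC and 7.72 FPKM in iPSC, and Mael at 6.91 FPKM in ESC and 22.2 FPKM in iPSC. The meiotic genes Hormad1 and Sycp1 were at 5.16 and 2.67 FPKM in ESC and at 16.7 and 7.45 FPKM in iPSC. Stra8, which starts meiosis, lay within 2-fold at 35.8 FPKM in ESC and 68.2 FPKM in iPSC. Genes of the state resembling the 2-cell embryo counted 0 higher in ESC and 1 (Pramel24) higher in iPSC of 15, with a median of −0.24 (adjusted 0 and 3, median −0.22). Zscan4f, of a family with near-identical copies, was at 68.1 FPKM in ESC and 68.4 FPKM in iPSC.

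Imprinted genes, which are expressed from the copy of 1 parent, were counted by parent of origin. Paternally expressed genes counted 1 (Dio3) higher in ESC and 7 higher in iPSC of 21, with a median of −0.63 (adjusted 1 and 4 of 20, median −0.46). Mest was at 5.46 FPKM in ESC and 29.2 FPKM in iPSC, Peg3 at 1.25 FPKM in ESC and 10.6 FPKM in iPSC, and Zdbf2 at 0.891 FPKM in ESC and 5.12 FPKM in iPSC. Impact, at 6.12 FPKM in ESC and 15.4 FPKM in iPSC, fell inside 2-fold after adjustment (−0.32), as did Zdbf2 (−0.84). Maternally expressed genes counted 3 higher in ESC and 3 higher in iPSC of 17, with a median of −0.02 (adjusted 0 and 2 of 16), near the 12.4% of all genes higher in ESC and 12.9% higher in iPSC. In the Dlk1-Dio3 cluster, whose non-coding RNA Meg3 has been used to grade mouse iPSC lines, Meg3 was at 44.1 FPKM in ESC and 22.7 FPKM in iPSC (difference 0.93, adjusted 0.32), Mirg at 11.8 FPKM in ESC and 3.48 FPKM in iPSC, and Rian at 13.6 FPKM in ESC and 25.9 FPKM in iPSC. Meg3, Mirg and Rian were thus present in both, and of the 3 Mirg alone passed 2-fold before adjustment (adjusted 0.88). Whether the parental lists differ from each other was not tested.

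Genes that set and remove DNA methylation were higher in ESC in 1 of 19 cases (Zfp57) and higher in iPSC in 8, with a median of −0.39 (adjusted 1 and 6, median −0.63). Tet1, which oxidises methylcytosine, was at 3.09 FPKM in ESC and 14.4 FPKM in iPSC, and Uhrf2 at 3.19 FPKM in ESC and 10.5 FPKM in iPSC. Hells, a chromatin remodeller, was at 31.3 FPKM in ESC and 89.0 FPKM in iPSC (adjusted difference −0.45). Polycomb genes counted 1 (Ring1) higher in ESC and 9 higher in iPSC of 32, with a median of −0.48, against 12.4% of all genes higher in ESC and 12.9% higher in iPSC. Aebp2 was at 11.1 FPKM in ESC and 61.5 FPKM in iPSC, the ubiquitin ligase Rnf2 at 7.52 FPKM in ESC and 32.0 FPKM in iPSC, and Jarid2 at 15 FPKM in ESC and 36.1 FPKM in iPSC. After adjustment the Polycomb counts were 0 for ESC and 5 for iPSC, and Suz12, at 20.8 FPKM in ESC and 51.7 FPKM in iPSC, was no longer among them (−0.39).

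The signalling lists split within themselves. FGF and ERK feedback genes counted 2 higher in ESC and 9 higher in iPSC of 31 (median −0.21; adjusted 1 and 9), against 12.4% of all genes higher in ESC and 12.9% higher in iPSC. Next to Spry4 and Dusp6 the iPSC side held Spred1, at 0.979 FPKM in ESC and 10.5 FPKM in iPSC, Myc, at 2.98 FPKM in ESC and 18.3 FPKM in iPSC, and Etv4, at 8.58 FPKM in ESC and 32.7 FPKM in iPSC. Dusp14, a phosphatase, was at 36.6 FPKM in ESC and 7.27 FPKM in iPSC. Members within 2-fold included Spry2, at 60.9 FPKM in ESC and 62.1 FPKM in iPSC, Egr1, at 19 FPKM in ESC and 17.7 FPKM in iPSC, and Etv5, at 43.1 FPKM in ESC and 41.5 FPKM in iPSC. Wnt targets and feedback genes counted 7 higher in ESC and 7 higher in iPSC of 22, and their median of −0.06 became 0.06 after adjustment. On the ESC side stood Cdx1, Sp5, the secreted antagonist Sfrp1 (32.0 FPKM in ESC, 6.6 FPKM in iPSC) and the feedback genes Axin2 (3.79 FPKM in ESC, 1.15 FPKM in iPSC) and Notum (10.2 FPKM in ESC, 4.39 FPKM in iPSC). On the iPSC side stood Myc, the receptors Fzd7 (1.71 FPKM in ESC, 8.59 FPKM in iPSC) and Lgr4 (2.32 FPKM in ESC, 9.33 FPKM in iPSC), and beta-catenin itself (Ctnnb1, 57.5 FPKM in ESC, 182 FPKM in iPSC).

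LIF and JAK-STAT genes counted 3 higher in ESC and 4 higher in iPSC of 21, with a median of −0.20 (adjusted 0 and 4), and the ESC count was near the 12.4% of all genes, against 12.9% for iPSC. The feedback inhibitor Socs3, a direct STAT3 target, was at 19.9 FPKM in ESC and 41.5 FPKM in iPSC, whereas Socs1 was at 8.22 FPKM in ESC and 3.14 FPKM in iPSC. The receptor subunit Il6st (gp130) was at 3.30 FPKM in ESC and 8.50 FPKM in iPSC. Socs1 (0.72) and Il6st (−0.51) fell inside 2-fold after adjustment. TGF-beta, Nodal and BMP genes counted 5 higher in ESC and 12 higher in iPSC of 33, with a median of −0.60 (adjusted 4 and 9, median −0.28). Id1, a BMP target, was at 3.94 FPKM in ESC and 24.8 FPKM in iPSC, while Id3, another BMP target, was at 50.8 FPKM in ESC and 19.5 FPKM in iPSC. The ligand Bmp7 was at 7.96 FPKM in ESC and 1.54 FPKM in iPSC, and Nodal itself at 42.9 FPKM in ESC and 44.9 FPKM in iPSC.

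Cell cycle genes counted 2 higher in ESC and 2 higher in iPSC of 39 (median −0.18; adjusted 3 and 1), below the shares of all genes. The 2 in ESC were the inhibitors Cdkn1a (p21) and Cdkn2a (p16 and p19Arf), while the inhibitors Cdkn1b (difference −0.42), Cdkn1c (−0.02) and Cdkn2b (0.78) lay within 2-fold. Cdkn1a was at 155 FPKM in ESC and 26.9 FPKM in iPSC (difference 2.48, adjusted 2.15), and Cdkn2a at 43.6 FPKM in ESC and 9.29 FPKM in iPSC (difference 2.12, adjusted 1.05). The same 2 genes were the only members of the p53 target and cell death list higher in ESC, against 9 of 26 higher in iPSC (median −0.54; adjusted 3 and 4). Mdm2 and Mdm4, which inhibit p53, were at 17.4 and 2.24 FPKM in ESC and at 46.0 and 15.8 FPKM in iPSC. Mdm2 fell just inside 2-fold after adjustment (−0.995). The survival gene Mcl1 was at 91.6 FPKM in ESC and 223 FPKM in iPSC.

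Cholesterol synthesis genes were higher in ESC in 7 of 24 cases and in iPSC in 0, with a median of 0.40 (adjusted 5 and 0, median 0.55). Ebp was at 51.8 FPKM in ESC and 9.82 FPKM in iPSC, Tm7sf2 at 17.2 FPKM in ESC and 4.04 FPKM in iPSC, and Fdft1, the squalene synthase, at 50.5 FPKM in ESC and 22.2 FPKM in iPSC. Interferon response genes counted 8 higher in ESC and 1 (Isg15) higher in iPSC of 16, with a median of 0.92 (adjusted 4 and 1, median 0.44), and 8 further members stayed under 1 FPKM in both. Ifitm1 was at 102 FPKM in ESC and 23.2 FPKM in iPSC, Ly6e at 71.3 FPKM in ESC and 18 FPKM in iPSC, and Oas1a at 13 FPKM in ESC and 3.12 FPKM in iPSC. The inducible genes Ifit3, Rsad2 and Usp18 were among those under 1 FPKM, and Isg15 was at 0.193 FPKM in ESC and 1.90 FPKM in iPSC.

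Among metabolic and stress genes, glycolysis and hypoxia genes counted 4 higher in ESC and 3 higher in iPSC of 35, with a median of 0.20 that became 0.01 after adjustment (1 and 2), which is near or below the 12.4% of all genes higher in ESC and 12.9% higher in iPSC. Hk1 was at 25.2 FPKM in ESC and 6.13 FPKM in iPSC, whereas Pdk1, which diverts pyruvate from mitochondria, was at 3.22 FPKM in ESC and 17.8 FPKM in iPSC. Amino acid and ATF4 response genes counted 1 (Asns) higher in ESC and 4 higher in iPSC of 28, with a median of −0.22 (adjusted 1 and 7). Asns was at 270 FPKM in ESC and 97.7 FPKM in iPSC, and the arginine transporter Slc7a3 at 12.7 FPKM in ESC and 57.7 FPKM in iPSC. Metallothionein and stress genes counted 2 higher in ESC and 5 higher in iPSC of 23, and their median of 0.19 became −0.15 after adjustment. Hmox1, which degrades heme, was at 22.7 FPKM in ESC and 77.8 FPKM in iPSC.

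Selected genes of the X chromosome and of X inactivation counted 0 higher in ESC and 7 higher in iPSC of 14, with a median of −1.03 (adjusted 1 and 5, median −0.67). Ddx3x, an RNA helicase, was at 16.6 FPKM in ESC and 133 FPKM in iPSC, and Kdm6a, a histone demethylase, at 1.01 FPKM in ESC and 9.63 FPKM in iPSC. Pgk1 and Hprt lay within 2-fold, and Xist was low, at 2.06 FPKM in ESC and 1.40 FPKM in iPSC. Over all 399 genes of the X chromosome the median difference was −0.41, the lowest of the chromosomes given, and −0.13 after adjustment. All 6 Y-linked genes in the table reached 1 FPKM in ESC or iPSC, 3 were higher in iPSC and 0 in ESC, and after adjustment 0 were past 2-fold. Eif2s3y was at 3.36 FPKM in ESC and 7.22 FPKM in iPSC, so both lines expressed a Y-linked gene.

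**Figure D3:**
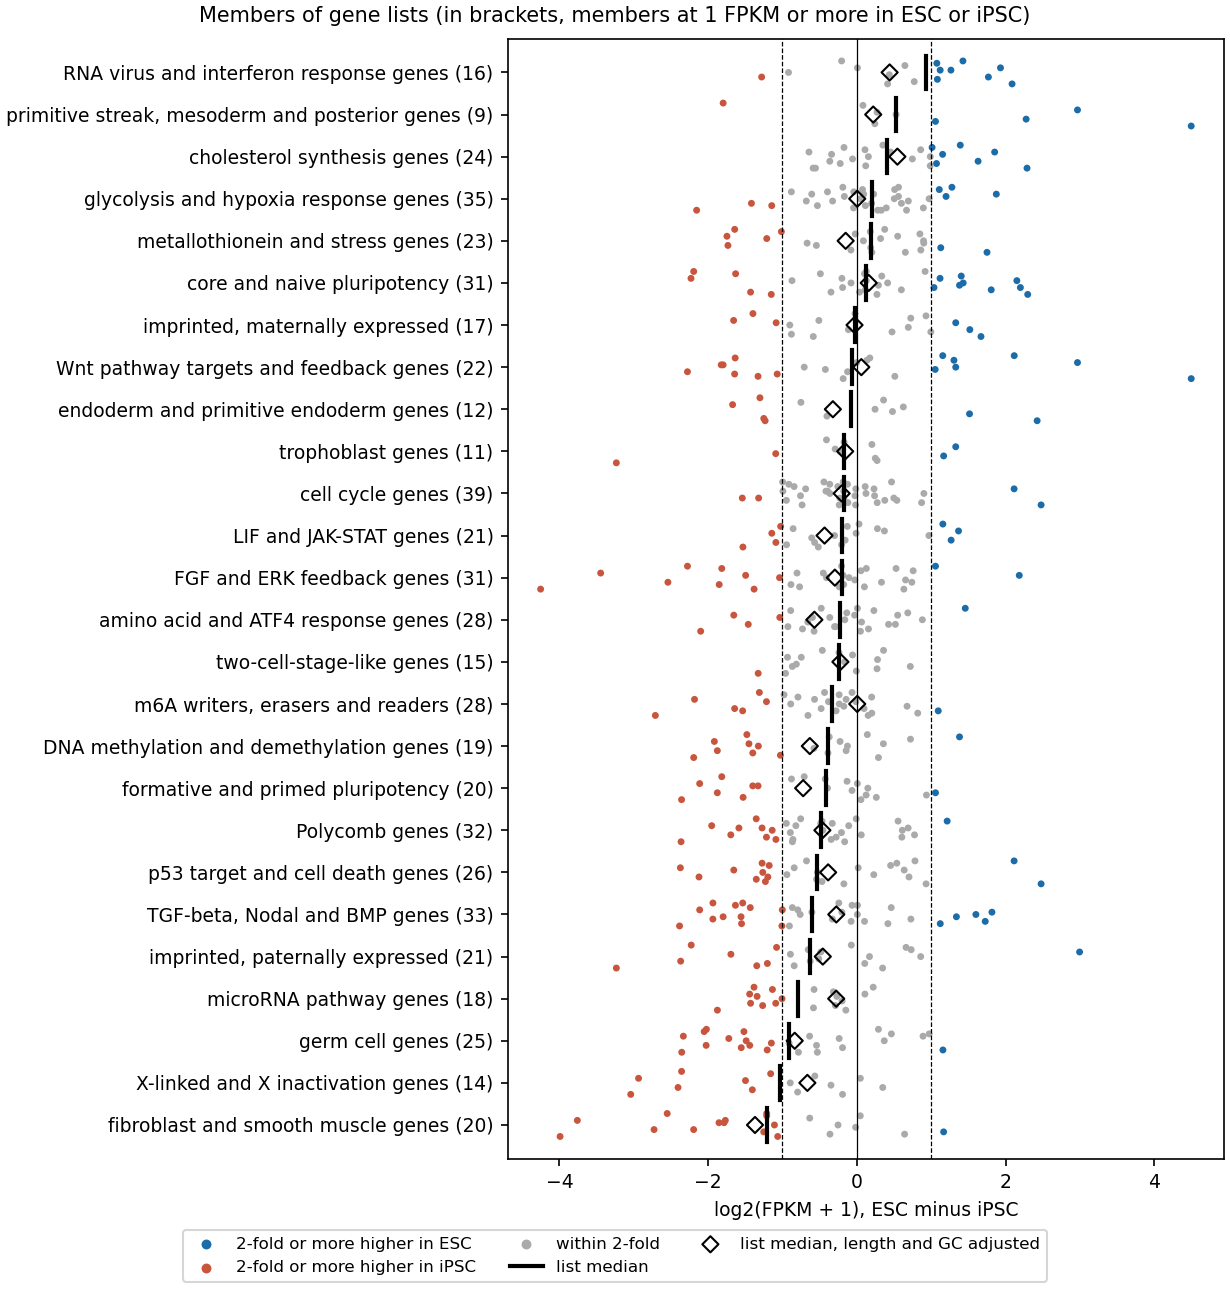
Log2(FPKM + 1) difference, ESC minus iPSC, of each member of 26 gene lists with at least 9 members at 1 FPKM or more, ordered by list median; each point is a gene, dashed lines mark 2-fold, bars the list median and diamonds the median after adjustment for length and GC content. Interferon response genes lie highest (median 0.92) and fibroblast and smooth muscle genes lowest (−1.21), and the diamond of the m6A list sits near 0.

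The main writer subunits and the erasers of m6A lay within 2-fold, and several binding proteins were higher in iPSC. Of 28 listed genes, 1 was higher in ESC and 6 were higher in iPSC, and the median of −0.33 became 0.01 after adjustment (2 and 3). Of the writers, Mettl3, the catalytic subunit, was at 9.78 FPKM in ESC and 12.1 FPKM in iPSC, Mettl14 at 6.48 FPKM in ESC and 10.8 FPKM in iPSC, and Wtap at 28.4 FPKM in ESC and 38.7 FPKM in iPSC. The scaffold subunits Virma and Zc3h13 were at 3.33 and 9.29 FPKM in ESC and at 6.49 and 4.83 FPKM in iPSC. Of the erasers, Fto was at 9.69 FPKM in ESC and 11.1 FPKM in iPSC, and Alkbh5 at 9.45 FPKM in ESC and 11.3 FPKM in iPSC. All of these lay within 2-fold. Zcchc4, which methylates ribosomal RNA, was past 2-fold, at 1.66 FPKM in ESC and 5.61 FPKM in iPSC (difference −1.31, adjusted −0.56).

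The cytoplasmic readers showed wider differences. Ythdf3 was at 2.06 FPKM in ESC and 19 FPKM in iPSC (difference −2.71, adjusted −1.69), Ythdf1 at 17 FPKM in ESC and 55.4 FPKM in iPSC, and Ythdf2, which directs marked mRNA to decay, at 9.34 FPKM in ESC and 23 FPKM in iPSC (adjusted −0.57). The nuclear reader Ythdc1 was within 2-fold, at 23.3 FPKM in ESC and 20.1 FPKM in iPSC. Igf2bp3, which binds and stabilises marked mRNA, was the member higher in ESC, at 18.1 FPKM in ESC and 7.94 FPKM in iPSC. Fmr1 and Ythdc2 were also higher in iPSC. MicroRNA pathway genes counted 0 higher in ESC and 9 higher in iPSC of 18, with a median of −0.79, and 3 after adjustment (median −0.28). Ago2, the slicer Argonaute, was at 1.83 FPKM in ESC and 9.39 FPKM in iPSC, and Dgcr8, the partner of Drosha, at 5.75 FPKM in ESC and 16.6 FPKM in iPSC. The transcripts of these lists are long, with a median of 4377 nt in the m6A list and 5636 nt in the microRNA list, against 2720 nt over all genes.

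In m6A calls, ESC and iPSC called about the same number of transcripts and shared most of them. A call in any region was present on 7572 transcripts (69.3%, 95% interval 68.4 to 70.1) in ESC and on 7503 (68.6%, 67.7 to 69.5) in iPSC, of 10934. Both cell types called 6533, ESC alone 1039 (9.5%), iPSC alone 970 (8.87%) and neither 2392. The shared transcripts were 86.3% of the ESC calls and 87.1% of the iPSC calls. Intervals here are exact (Clopper-Pearson) and cover counting error over transcripts only. The balance of calls in ESC only and in iPSC only depended on the expression minimum, as given below.

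The agreement was lower for the region of the call. The same set of regions was called in both for 4545 transcripts (41.6%), 2392 of which had no call at all. Among the 6533 transcripts called in both, 2153 (33.0%) had the same set of regions, and 360 shared no region. The most frequent identical sets were CDS, TsTS and 3' UTR (454 transcripts), CDS and TsTS (417), TsTS alone (343) and CDS alone (332). A called transcript had on average 1.98 regions called in ESC and 2.05 in iPSC.

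TcSS calls were more frequent in ESC and 3' UTR calls in iPSC. TcSS was called on 1939 transcripts in ESC and 1359 in iPSC, with only 472 in both, so that 24.3% of the ESC calls and 34.7% of the iPSC calls were shared. TcSS calls in 1 cell type only numbered 1467 in ESC (13.4%) and 887 in iPSC (8.11%). The 3' UTR stood the other way round, with 2843 transcripts called in ESC and 3563 in iPSC, 2313 in both, 530 in ESC only (4.85%) and 1250 in iPSC only (11.4%). Here 81.4% of the ESC calls and 64.9% of the iPSC calls were shared. CDS calls numbered 4558 in ESC and 4881 in iPSC, with 1005 (9.19%) in ESC only and 1328 (12.1%) in iPSC only. TsTS calls numbered 5293 in ESC and 5118 in iPSC, with 1304 (11.9%) in ESC only and 1129 (10.3%) in iPSC only. The 5' UTR was called on 389 transcripts in ESC and 488 in iPSC, with 221 (2.02%) in ESC only and 320 (2.93%) in iPSC only. The excess of iPSC-only calls in the CDS and 5' UTR depended on low transcripts: at 5 FPKM or more in both, ESC-only calls were 1.35 times the iPSC-only calls in the CDS and 1.32 times in the 5' UTR. The 3' UTR excess in iPSC and the TcSS excess in ESC stood at each minimum tried, but neither was general. The 3' UTR excess did not hold in the shortest transcripts or in those of the highest GC content, as given below. TcSS leaned to iPSC in the lowest of 5 bins by expression (79 in ESC only, 168 in iPSC only) and in the next bin (144 and 200). It also leaned to iPSC in the longest of 5 bins by length (112 in ESC only, 342 in iPSC only).

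**Figure D4:**
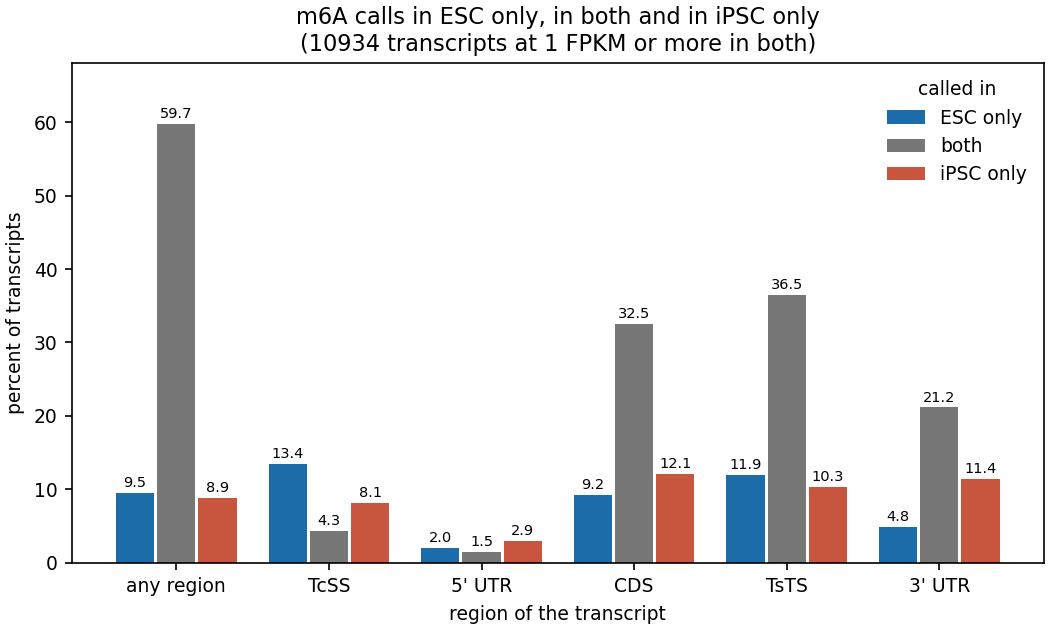
Percent of 10934 transcripts with an m6A call in ESC only (blue), in both (grey) and in iPSC only (red), for a call in any region and for each of 5 regions in the order of the table. Calls in both are the largest group for any region, CDS, TsTS and 3' UTR, while for TcSS and 5' UTR calls in ESC only and in iPSC only each exceed the shared calls.

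Calls in a single cell type were more frequent on the side with the higher level. Of 1350 transcripts past 2-fold on the ESC side, 252 were called in ESC only and 48 in iPSC only. Of 1295 transcripts past 2-fold on the iPSC side, 44 were called in ESC only and 231 in iPSC only. Among the 8289 transcripts within 2-fold, 743 were called in ESC only and 691 in iPSC only. In this last group the regional pattern stayed, with TcSS in ESC only for 1070 and in iPSC only for 664, and the 3' UTR in ESC only for 414 and in iPSC only for 951.

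The level of the transcript mattered in another way. Among 5 equal bins by expression, the lowest had 60.3% of transcripts called in ESC and 67.6% in iPSC, and the highest 70.4% in ESC and 57.4% in iPSC. TcSS calls ran up in ESC from 4.76% in the lowest bin to 37.3% in the highest, whereas in iPSC they were 8.82% in the lowest and 13.7% in the highest. The 3' UTR was called more often in iPSC in every bin, with 25.8% in ESC and 33.9% in iPSC in the lowest, and 17.2% in ESC and 21.5% in iPSC in the highest. Accordingly, at 10 FPKM or more in both, 554 transcripts were called in ESC only and 229 in iPSC only, and with no minimum 1794 in ESC only and 2067 in iPSC only.

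Transcript length split the calls as well. Among 5 equal bins by length, TcSS was called on 26.2% of the shortest transcripts in ESC and 7.54% in iPSC, and on 8.44% of the longest in ESC and 19% in iPSC. The 3' UTR was called in 8.69% of the shortest in ESC and 8.04% in iPSC, and in 35.9% of the longest in ESC and 54.6% in iPSC. Transcripts called in ESC only had a median length of 1646 nt and those called in iPSC only 3268 nt, against 2996 nt for those called in both and 1736 nt for those called in neither. Their median levels were 18.6 FPKM in ESC and 13.4 FPKM in iPSC for ESC-only transcripts, and 3.97 FPKM in ESC and 6.45 FPKM in iPSC for iPSC-only transcripts. GC content split the calls too. Among 5 bins by GC content of the transcript, the lowest had a call in 51.2% in ESC and 57.9% in iPSC, and the highest in 83.3% in ESC and 76% in iPSC. In the lowest bin 185 transcripts were called in ESC only and 330 in iPSC only, and in the highest 246 in ESC only and 88 in iPSC only. The 3' UTR excess in iPSC held in the 4 lower bins and was turned round in the highest, with 178 called in ESC only and 139 in iPSC only, against 51 in ESC only and 284 in iPSC only in the lowest. The TcSS excess in ESC held in all 5 bins, from 172 in ESC only and 148 in iPSC only in the lowest to 455 in ESC only and 166 in iPSC only in the highest. Length and GC content thus moved with both the expression difference and the calls, and their part in the calls was not tested.

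**Figure D5:**
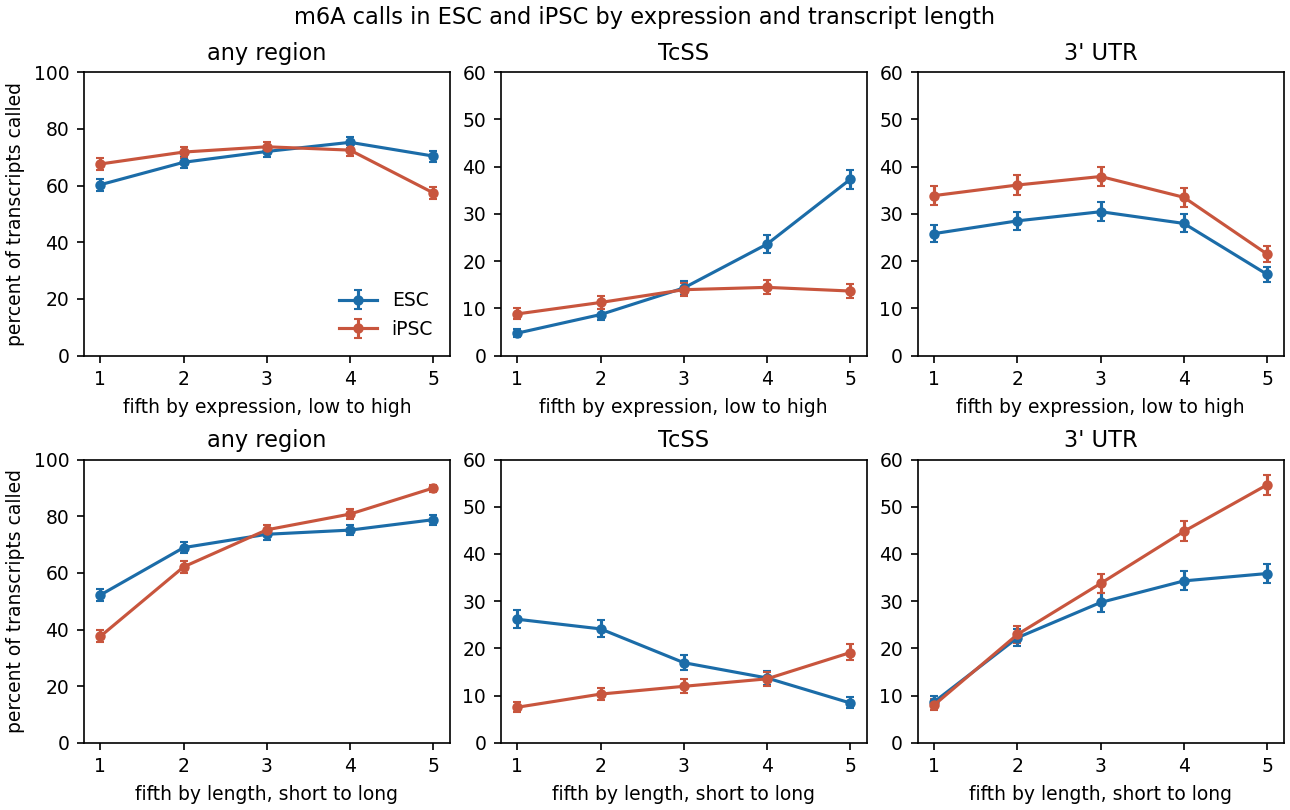
Percent of transcripts called in ESC (blue) and iPSC (red) in 5 bins of the compared transcripts ordered by expression (geometric mean of both FPKM, upper row) and by length (lower row), for any region, TcSS and 3' UTR; bars are exact 95% binomial intervals over transcripts, covering counting error only. The lines cross for any region and TcSS and lie apart for the 3' UTR except in the shorter bins, with TcSS at 37.3% in ESC and 13.7% in iPSC in the highest bin by expression.

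The most expressed transcripts called in ESC only were largely those of ribosomal proteins, and those called in iPSC only were more mixed. Of the 12 most expressed called in ESC only, 11 were ribosomal protein transcripts, such as Rpl36 (TsTS) and Rpl28 (TsTS), and the other was Ftl1, the ferritin light chain (TcSS and TsTS). Of the 12 called in iPSC only, Rpl35 (TcSS), Rps9, Rps10 and Rps25 (TsTS) and Rpl38 (TcSS) were cytosolic ribosomal protein transcripts, and Cox8a, Cox4i1 and Uqcrq belong to the respiratory chain. As a class, however, ribosomal protein transcripts were called less often than the 69.3% of all transcripts in ESC and 68.6% in iPSC. Of 98 cytosolic ones 32 (32.7%) were called in ESC and 17 (17.3%) in iPSC, with 8 in both. Of 101 oxidative phosphorylation transcripts 43 (42.6%) were called in ESC and 22 (21.8%) in iPSC, with 13 in both. TcSS was called on 28 of them (27.7%) in ESC and 4 (3.96%) in iPSC, against 17.7% of all transcripts in ESC and 12.4% in iPSC. In the shortest of 5 bins by length, any region was called on 52.2% in ESC and 37.6% in iPSC. TcSS was called there on 26.2% in ESC and 7.54% in iPSC. In the highest of 5 bins by expression, any region was called on 70.4% in ESC and 57.4% in iPSC. TcSS was called there on 37.3% in ESC and 13.7% in iPSC. The part of length and level in the calls of both classes was not tested. Many genes of both classes have near-identical copies in the genome, and reads may be shared among them.

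Outside these classes, in a list added after the values were seen, the most expressed transcripts called in ESC only included Ftl1, Mt2, Eef1g, Npm1 and Ubb. Npm1, the nucleolar protein nucleophosmin, was at 895 FPKM in ESC and 1019 FPKM in iPSC and was called in the CDS in ESC only. Ubb, a polyubiquitin gene, was at 968 FPKM in ESC and 887 FPKM in iPSC and was called in TcSS, CDS and TsTS in ESC only. Those called in iPSC only included Sod1, Tuba1b and Snrpd3, all in TsTS. Asns was called in TsTS in iPSC only, although its level was higher in ESC. Actb was called in TcSS in both and in CDS, TsTS and 3' UTR in iPSC only. Trim28, a corepressor that silences retroelements in ESC, was called in the 5' UTR in ESC only, at 422 FPKM in ESC and 493 FPKM in iPSC.

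Calls in 3 or more regions in 1 cell type and 0 in the other occurred on 66 transcripts in ESC and 112 in iPSC. The ESC set included TcSS in 53 and the 3' UTR in 24, and the iPSC set included TcSS in 40 and the 3' UTR in 87. In ESC, Spint2 had 4 regions called in ESC at 151 FPKM in ESC and 109 FPKM in iPSC, and Vasp had 4 at 25.6 FPKM in ESC and 33.8 FPKM in iPSC. On the iPSC side, Cbx5, the heterochromatin protein HP1 alpha, had 4 regions called at 12.5 FPKM in ESC and 10.8 FPKM in iPSC, and Marf1 had 4 at 4.35 FPKM in ESC and 4.54 FPKM in iPSC. These 4 transcripts lay within 2-fold in expression, but others with 4 regions called on 1 side did not. On the iPSC side, a Tnpo1 transcript (difference −3.14), Ncapg2 (−2.12), Garre1 (−1.77) and Ppm1f (−1.07) were past 2-fold toward iPSC. On the ESC side, Trnp1 (1.93) was past 2-fold toward ESC.

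Pluripotency transcripts were called in both cell types in most cases. The called regions differed for many of them, as they did over all transcripts. With 1 leading transcript per gene, 29 of the 31 genes reached 1 FPKM in both, Sall4 and Zfp57 falling out through their split transcripts. Of the 29, 25 were called in ESC, 27 in iPSC and 25 in both, so 0 were called in ESC only (9.78% of all genes were) and 2 in iPSC only (9.19% of all genes). Calls in both covered 86.2% of the list and 60.1% of all genes. TcSS was called on 11 in ESC and 4 in iPSC, with 9 in ESC only (13.4% of all genes) and 2 in iPSC only (8.1% of all genes). The pluripotency list was well expressed, with a median of 49.0 FPKM in ESC and 51.8 FPKM in iPSC. In the highest of 5 bins by expression, TcSS was called in ESC only on 28.9% of transcripts and in iPSC only on 5.30%. The part of expression level in the TcSS counts of the list was not tested. TsTS was called on 18 in ESC and 23 in iPSC, with 1 in ESC only (11.9% of all genes) and 6 in iPSC only (10.7% of all genes). The 3' UTR was called on 12 in ESC and 16 in iPSC, with 1 in ESC only (4.95% of all genes) and 5 in iPSC only (11.6% of all genes). The CDS was called on 20 in ESC and 17 in iPSC, with 5 in ESC only (9.25% of all genes) and 2 in iPSC only (12.3% of all genes). The 5' UTR was called on 6 in ESC and 2 in iPSC, with 4 in ESC only (1.87% of all genes) and 0 in iPSC only (2.98% of all genes). In the highest bin by expression, the CDS was called in ESC only on 15.9% and in iPSC only on 5.12%. The same shares were 15.8% and 6.31% for TsTS, 3.66% and 7.96% for the 3' UTR, and 2.83% and 0.686% for the 5' UTR. The part of expression level in these counts was not tested either.

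The 2 genes called in iPSC only were Dnmt3l, with CDS and TsTS, and Tfcp2l1, with CDS, TsTS and 3' UTR. Tfcp2l1 had no call in ESC although its level there was 43.8 FPKM, against 8.11 FPKM in iPSC, and its stop codon lies within the printed window. Dppa3 and Dppa5a had no call in either. Nanog (CDS and TsTS), Esrrb (CDS, TsTS and 3' UTR) and Tbx3 (all regions but TcSS) had the same calls in both. Fbxo15, L1td1, Lin28a, Tcl1 and Tdgf1 also kept the same regions. Over all transcripts called in both, 33.0% had the same set of regions. Pou5f1 was called in TcSS and CDS in ESC and in CDS and TsTS in iPSC, and Utf1 and Gdf3 showed the same exchange. Sox2 was called in all 5 regions in ESC and in all but the 5' UTR in iPSC. Klf4 was called in all 5 regions in ESC and in all but TcSS in iPSC. Dppa4 was called in TcSS, CDS, TsTS and 3' UTR in ESC and in TsTS in iPSC, and Rif1 in CDS in ESC and in CDS, TsTS and 3' UTR in iPSC.

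The genes of the m6A machinery were themselves called in 22 of 27 cases in ESC and in 25 in iPSC, all 22 being shared, against 69.9% of all genes in ESC and 69.3% in iPSC. Their 3' UTR was called on 1 (Igf2bp2) in ESC only and on 7 in iPSC only, with 0 in both (4.95% of all genes were called there in ESC only and 11.6% in iPSC only). Among the 7 were Mettl14, Alkbh5, Ythdf2, Igf2bp1 and Zc3h13. Transcripts of this list are long, with a median of 4377 nt. In the longest of 5 bins by length, the 3' UTR was called in ESC only on 3.39% of transcripts and in iPSC only on 22.2%. A call in any region was present in that bin on 78.8% of transcripts in ESC and 89.9% in iPSC. The part of length in the counts of this list, in any region and in the 3' UTR, was not tested. Mettl3 was called in CDS in ESC and in TcSS in iPSC, and Ythdf1 and Fto in CDS in both. Interferon response genes had TcSS calls on 5 of 14 in ESC and 0 in iPSC, against 17.7% of all genes in ESC and 12.4% in iPSC. Polycomb genes had 3' UTR calls on 6 of 29 (20.7%) in ESC and 13 (44.8%) in iPSC, including all 6, against 26.2% of all genes in ESC and 32.8% in iPSC. In the ERK list Dusp6 was called in TsTS in ESC and in all 5 regions in iPSC. Cdx1 was called in TcSS, CDS, TsTS and 3' UTR in ESC and in TsTS and 3' UTR in iPSC. In both genes the cell type with the higher level had the larger number of called regions.

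The sequence GGACT, searched on the transcript strand, was more frequent around stop codons of transcripts called in TsTS in both cell types. In windows of 200 nt centred on the stop codon it was present in 34.9% (95% interval 33.4 to 36.5) of transcripts called in both, 21.5% (19.3 to 24) of those called in ESC only, 28.2% (25.5 to 31.0) of those called in iPSC only and 16.4% (15.2 to 17.6) of those called in neither. It was present in 25.5% of all 9914 such windows. The median GC content of the windows was 54.5% for calls in both, 54.0% for ESC only, 50.0% for iPSC only and 48.5% for neither, so GC content moved with the calls too, and its part was not tested. Likewise, TcSS, the first column, was assumed to lie at the start of the transcript. In the first 200 nt of the transcript, split by the TcSS call, the shares were 30.4% for both, 22.2% for ESC only, 31.0% for iPSC only and 18.9% for neither, and 20.9% over all 10552. TcSS calls in ESC only, the larger group with 1458 such windows, thus held GGACT in a share between those of iPSC-only and of uncalled transcripts. The median GC content of these first 200 nt was 62.5% for both, 66% for ESC only, 61.5% for iPSC only and 63.5% for neither. Its part was not tested here either. Whole 5' UTR, CDS and 3' UTR sequences are left out of this comparison because their lengths differed between the classes.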

How the data were processed

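RNA-seq and m6A-seq were made once each from ESC and iPSC. The authors deposited 1 table with a line per RefSeq transcript: FPKM values from the RNA-seq libraries, and yes/no calls (other values, 1 or 0) for 5 regions from m6A-seq, per the file headers. CASAVA, TopHat2 (2.0.4), the build mm9 and Cufflinks (2.0.2) are listed in the submitters' processing notes. The sources used here name neither the peak caller nor its threshold. Read depth is unknown: low FPKM values of single-transcript genes gave no common step (largest bin 1.03% of 1167 rows), so no count was recovered.

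Transcripts were named by RefSeq (19446, assembly GRCm38.p6) and GENCODE M21 (104); 226 had no name. FPKM was summed per gene, and genes at 1 FPKM or more in either library were compared as log2(FPKM + 1), which understates changes of low genes. Past 2-fold counts as higher. Length and GC content came from GENCODE M21 (11508 of 11598 genes compared). The adjustment subtracts the median of a cell of 10 length by 10 GC bins; Peg10 and Rian had no such value. Calls were compared over transcripts at 1 FPKM or more in both libraries; in lists, over the gene's leading transcript (highest mean of ESC and iPSC). All 1198 non-coding transcripts carried 0 calls.

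Named genes were the 15 widest differences on each side at 10 FPKM or more in the higher library, Cdx1, Dnmt3l and Peg10, up to 6 members of each of 29 lists at 5 FPKM or more by widest difference, all pluripotency and m6A members, and for calls the most expressed transcripts called in 1 cell type only. The values of 1 gene that this rule names are not reported here. Other members of lists named here were picked to complete a count or as background after their values were seen. The comparison and lists were chosen with earlier results of these data known. The 2-fold counting and the length part of the adjustment were tested on ESC values with known changes put in and no noise added. The GC part of the adjustment and the counting of m6A calls were not tested in this way. Python 3.11.15, pandas 2.3.3, numpy 2.4.6, scipy 1.17.1 and matplotlib 3.10.9 were used.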

Additional observations from a re-analysis of the deposited data

Results flagged for a closer look

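Transcripts under 1 FPKM in both libraries were not part of the comparison of calls, yet carried calls: 1250 of 5964 (21%) in ESC and 1382 (23.2%) in iPSC. Among the 3391 of them that are the only listed transcript of their gene, 330 were called in ESC and 278 in iPSC. Of transcripts listed at 0 FPKM in ESC, 190 of 825 were called there, and of those listed at 0 in iPSC, 154 of 558. Restricted to single-transcript genes these counts were 5 of 270 in ESC and 0 of 150 in iPSC. Among 2647 genes with several coding transcripts, all transcripts had the same set of called regions in 82.7% of genes in ESC and 79.8% in iPSC.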

How the results depend on the processing

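No paired analysis was possible because each cell type had 1 library per assay. The counts of genes past 2-fold on the ESC side and on the iPSC side stayed within 1.5 times under a pseudocount of 0.1, under a 5 FPKM minimum or none, under median-ratio scaling, with the leading transcript and without genes listed at 0. A pseudocount of 5 gave 660 in ESC and 476 in iPSC, and the length and GC adjustment 841 in ESC and 863 in iPSC. Scaling moved the median of all genes by −0.04. The ratio of transcripts called in ESC only to iPSC only was 1.07; it was 1.81 at 5 FPKM in both, 2.42 at 10 FPKM and turned to 0.868 with no minimum. TcSS had 1.65, then 2.69 at 5 FPKM and 3.78 at 10 FPKM. TsTS had 1.155, then 1.95 at 10 FPKM. The 5' UTR turned from 0.691 to 1.32 at 5 FPKM and 2.49 at 10 FPKM, and the CDS from 0.757 to 1.35 and 1.97. The 3' UTR stayed between 0.424 and 0.537 in all alternatives. The leading transcript, single-transcript genes, transcripts under 2-fold different and leaving out ribosomal protein and oxidative phosphorylation genes (chosen after seeing the data) kept each ratio within 1.5 times and on its side of 1. Shared transcripts as a percent of the ESC calls were 82.4 with no minimum, 83.6 at 5 FPKM and 80.0 at 10 FPKM, and of the iPSC calls 80.3, 90.2 and 90.7. The cause of these shifts was not tested. Of 149 named genes past 2-fold, 0 changed sign; 35 fell within 2-fold after adjustment, 32 at a pseudocount of 5 and 2 (Bcor and Ctnnb1) with the leading transcript. List medians changed sign in 9 of 203 cases, 4 of them under the adjustment (Wnt, stress, m6A and blood lists). Read depth is unknown, so no detection limit can be given.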
